A study of Rattus norvegicus with 18 samples.

Results

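The arrays labelled SHR at 6 weeks of age were compared with those labelled SHR at 3 weeks of age, to describe how gene expression in the kidney changed as these young rats grew. The comparison used 6 of the 18 arrays of the series, taken because their labels gave this strain at these 2 ages, with 3 arrays in each group. The spread behind each test was estimated from all 18 arrays. The series covers whole kidneys of SHR/Izm, SHRSP/Izm and WKY/Izm rats, which are the spontaneously hypertensive strain, its stroke-prone derivative and the control strain of normal blood pressure. The rats received no treatment, and sex is not given in the sources used here. The younger rats were used 2 days after delivery at 3 weeks of age, the older ones 1 week after delivery, and the labels call the arrays biological replicates. Each array measured 1 kidney RNA sample in 1 colour. Signals are given as log2 of the intensity relative to the 75th percentile of that array's detected spots, those well above background, so that 0 is a fairly bright gene and a difference of 1 is a doubling.

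Between weaning and puberty the rat kidney enlarges through growth of tubules that are already laid down, since nephron formation ends soon after birth. Proximal tubules gain their adult transporters and steroid- and drug-metabolizing enzymes in this period, while imprinted growth genes and the collagen genes of growing tissue are turned down. In SHRs the same weeks lead up to the rise of blood pressure.

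The arrays bore the marks of kidney. Umod and Slc12a1 of the thick ascending limb, Lrp2 and Cubn of the proximal tubule, Aqp2 of the collecting duct, and Nphs1 of podocytes were well above background on all 6 arrays labelled SHR. Of the genes listed for other tissues, some were at background throughout, such as Cyp11b1 of the adrenal, Cd3e of T cells and Lep of fat. Others of the same lists were present on some or all of these arrays, such as the steroid hydroxylase Cyp17a1, the T-cell gene Cd3g and the fat gene Cidea, and each list is given with the results.

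The strain label could not be taken for granted, because some genes set the arrays labelled SHR at 3 weeks of age apart from those labelled SHR at 6 weeks of age as sharply as if they came from different strains. Vegfb, which encodes a vascular endothelial growth factor, is the clearest. On the 3-week SHR arrays its log2 signal was -8.51, -8.57 and -8.98, and on the 6-week SHR arrays -0.46, -0.39 and -0.63. On the arrays labelled SHRSP the order was turned round, with -0.48, -0.62 and -0.45 at 3 weeks of age and -8.69, -8.34 and -8.61 at 6 weeks of age. Both groups of WKY rats were high, at -0.01, -0.39 and -0.34 and then -0.30, -0.35 and -0.45. Vegfb was thus bright on every array of 4 groups and never well above background in the younger SHR and older SHRSP groups. The change in SHRs was a rise of at least 82.4-fold (adjusted p = 6.25e-14, moderated t test of limma). Where a group is not well above background its true level is unknown, and the fold is then a lower bound, counted from the lowest signal that was well above background on the same arrays.

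Agtrap, whose product binds the angiotensin II type 1 receptor, did the same in the other direction. Its signal in SHRs was 1.29, 1.22 and 1.24 at 3 weeks of age and -2.87, -3.07 and -2.90 at 6 weeks of age, against -3.59, -4.18 and -3.97 and then 1.88, 1.95 and 2.03 in SHRSP. The older SHRs lay far below the younger ones, 18.3-fold (adjusted p = 6.39e-11), and the older SHRSP far above the younger SHRSP, with no overlap. Apoh, for the phospholipid-binding plasma protein apolipoprotein H, was -8.50, -8.99 and -7.32 and then -2.09, -2.28 and -2.12 in SHRs, against -2.48, -2.67 and -2.36 and then -6.97, -8.87 and -9.07 in SHRSP. Ephx2, for the soluble epoxide hydrolase that breaks down epoxy fatty acids, Rxrg, for retinoid X receptor gamma, and the alpha-globin gene Hba-a3 had the same pattern of 4 groups.

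**Figure D1:**
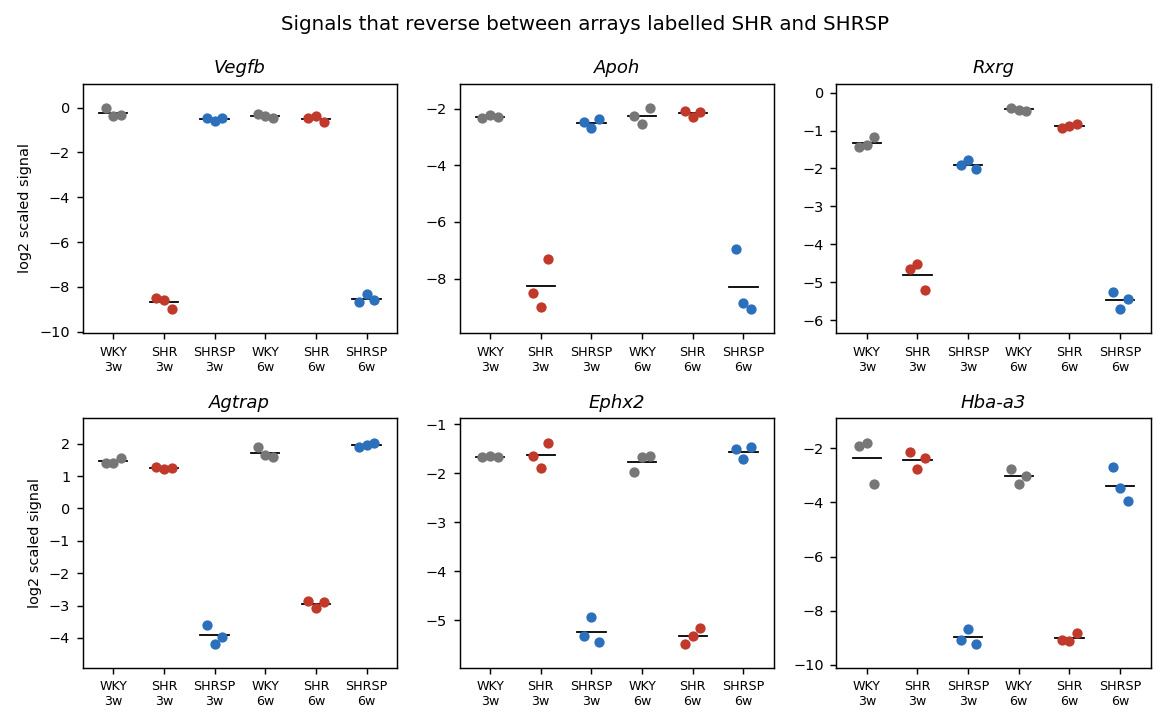
Log2 scaled signal of each array for 6 genes in the 6 groups of strain and age, as labelled. For Vegfb, Apoh, Rxrg, Agtrap, Ephx2 and Hba-a3 the younger SHR arrays stood beside the older SHRSP arrays, and the older SHR arrays beside the younger SHRSP arrays.

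Many of the probes that differed most between SHRSP and SHR labels turned round with age in the same way. At 3 weeks of age 55 of 19937 probes differed more than 4-fold between these strains with an adjusted p under 0.05 (0.276%), and 47 of the 55 had the opposite sign at 6 weeks of age, 39 of them past the test. The median size of these differences was 2.82 at 3 weeks of age, and at 6 weeks of age the median along the same direction was -2.40. None of the 8 with the same sign was past the test at the later age. Of the 46 of 19667 probes past 4-fold at 6 weeks of age (0.234%), 45 had the opposite sign at 3 weeks of age. Restricted to slides that carried both strains at the same age, which were slides 2 and 4, 45 of the 55 still turned round. Over all 19315 probes tested at both ages the reversal was weaker, with a Pearson r of -0.419 and a Spearman rho of -0.130 between the strain differences at the 2 ages, across probes, which are not independent replicates. A correct set of labels in which the strain difference reverses, and an exchange of the SHR and SHRSP labels at one of the ages, cannot be told apart here by array values alone. All samples were kept under their labels, and every result below is given as labelled. There were 3 further estimates, given where they ended a call or clearly changed a size: the mean of the growth in SHR and SHRSP arrays, which an exchange of these labels at either age leaves unchanged, and the crossed comparisons of SHRSP at 6 weeks with SHR at 3 weeks and of SHR at 6 weeks with SHRSP at 3 weeks. They share arrays with the labelled comparison and are no separate evidence for it. In the mean, Vegfb changed by 0.084, Apoh by 0.15, Rxrg by 0.17, Ephx2 by -0.0075 and Hba-a3 by -0.50, none past the test, and Agtrap by 0.84, the opposite of its labelled fall. Vegfb, Apoh and Hba-a3 were at background in a younger and an older group, so their values in the mean are not exact.

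Of 19742 probes tested between the ages in arrays labelled SHR, 156 (0.790%) changed at least 4-fold in measured signal with an adjusted p under 0.05, 100 higher and 56 lower at 6 weeks of age. All 4-fold counts given here are of measured signal. Of the 156, 44 were not well above background at 3 weeks of age and 27 at 6 weeks of age, so their folds are not exact. With low signals raised to the lowest that was well above background, 113 passed, 72 higher and 41 lower. For all 156 the 3 older arrays lay wholly on one side of the 3 younger ones. The probes were chosen on these same arrays, so this is no separate support, and the share among all probes tested was not counted. They included 98 named genes, and 52 of the probes carried no gene name. At any fold, 2687 probes (13.6%) were higher and 3583 (18.1%) lower. With 1 probe for each of 12226 genes, 1822 (14.9%) were higher and 1988 (16.3%) lower, and the median gene changed by -0.017. The balance of higher and lower depended on scaling and on single arrays. Quantile scaling gave 3728 probes higher and 3740 lower, and 20.8% of genes higher and 17.4% lower. Without SHR replicate 3 at 3 weeks of age 2906 probes were higher and 2228 lower. In the mean of SHR and SHRSP arrays 125 of the 156 passed the test in the same direction, and 12 had the opposite sign. Both crossed comparisons passed the test in the same direction for 98 of the 156 probes, 71 higher and 27 lower. The younger SHR arrays were on slides 1 and 2, scanned on day 1, and the older ones on slide 4, scanned on day 2, so that within SHRs age cannot be told apart from slide or scan day. Scan day can be given a term of its own only through the arrays labelled SHRSP, where 1 of 3 younger arrays was scanned on day 2. With that term 180 probes passed 4-fold, but the number past the test at any fold dropped from 6270 to 1522. By genes, 3.53% were then higher and 2.81% lower, and these are the shares to set beside the counts of lists under that term. The 4-fold count also depended on how background was handled, and was 55 after normexp background correction, which lifts dim signals.

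Several of the genes with the largest rises that passed the test in the mean of SHR and SHRSP arrays encode metabolic enzymes. Cyp2c11, the steroid hydroxylase known as the male-dominant cytochrome P450 of adult rat liver, was -5.94, -5.54 and -6.37 at 3 weeks of age and 1.88, 1.07 and 1.13 at 6 weeks of age. This was a 159-fold rise (log2 7.31, standard error 0.448, adjusted p = 6.57e-08), from dim on every younger array to bright on every older one. Cyp4a2, which hydroxylates arachidonic acid, climbed from 0.75, 0.86 and 0.97 to 5.94, 5.86 and 5.87, 32.8-fold (standard error 0.21, adjusted p = 1.38e-09). It was already bright in the young SHRs and brighter still on every older array. Rat Cyp2c and Cyp4a genes are close relatives, and whether each probe reads a single family member was not tested. Dhrs7l1, a dehydrogenase gene named Dhrs7 on the array, rose 30.5-fold, and Cyp8b1, a sterol hydroxylase of bile acid synthesis, 16.2-fold from a level that was well above background on only 1 of the younger arrays. Gc, for vitamin D-binding protein, was -2.75, -2.76 and -2.62 and then 1.20, 0.80 and 1.14. Its groups were far apart, with a 13.5-fold rise (standard error 0.323, adjusted p = 1.68e-06). The log2 changes in the mean of SHR and SHRSP arrays were 6.31 for Cyp2c11, 4.82 for Cyp4a2, 4.26 for Dhrs7l1, 3.48 for Cyp8b1 and 3.86 for Gc. The sizes for Cyp2c11, Dhrs7l1 and Cyp8b1 depended on the labels, with rises of 52.1-fold, 12.4-fold and 6.72-fold in SHR at 6 weeks against SHRSP at 3 weeks.

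Other genes with large rises had no single function in common. Cftr, the chloride channel, was -3.64, -2.55 and -3.91 in the younger and -0.15, -0.37 and -0.10 in the older SHRs. It rose 8.94-fold (adjusted p = 4.13e-06) without overlap, although the younger arrays were spread over more than a doubling. Its rise was 5.38-fold in the mean of SHR and SHRSP arrays and 2.92-fold in SHR at 6 weeks against SHRSP at 3 weeks. Cndp1, for a peptidase that splits carnosine, went up 6.98-fold from -3.03, -2.89 and -2.86 to 0.06, -0.35 and -0.09. All 3 older arrays were high and close together. Fcgr3a, an Fc receptor of macrophages and natural killer cells, increased 8.7-fold (adjusted p = 6.31e-07), and 3.98-fold in SHRSP at 6 weeks against SHR at 3 weeks. Gdf15, a secreted factor induced by cell stress, was -2.97, -4.64 and -5.43 and then -1.54, -1.53 and -0.84, 8.26-fold higher (adjusted p = 0.00548). Its younger arrays differed widely among themselves, and with scan day as a term Gdf15 no longer passed the test (adjusted p = 0.144). Iqch was not well above background in the younger SHRs and rose at least 19.4-fold, against 12.5-fold in SHR at 6 weeks against SHRSP at 3 weeks, where both groups were above background. Tm4sf20 rose 12.1-fold.

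Genes of the fetal growth program were turned down. H19, the imprinted noncoding RNA, was -2.44, -2.45 and -2.94 at 3 weeks of age and -6.26, -6.04 and -6.43 at 6 weeks of age, a 12.4-fold fall (log2 -3.63, standard error 0.379, adjusted p = 1.12e-05). Its neighbor Igf2, the fetal insulin-like growth factor, moved from -2.18, -2.04 and -2.09 to -3.21, -3.01 and -3.14 and was 2.02-fold lower (adjusted p = 7.92e-06). Every older array of H19 and Igf2 was below every younger one. The imprinted genes Ndn (-0.95) and Cdkn1c (-0.90) fell too. Dlk1, another imprinted gene, was not well above background in the younger SHRs and rose at least 1.17-fold. Of 15 fetal and imprinted genes tested, 9 were lower and 3 higher, with a median change of -0.51, against 16.3% lower and 14.9% higher among all genes tested. In the mean of SHR and SHRSP arrays, where 33.3% of 12499 genes tested were lower and 21.6% higher, 10 were lower and 3 higher, and H19 fell by 2.87. With scan day as a term 4 of the 15 were lower, H19 among them, and none higher, with a median of -0.43. For every such change in whole kidney, fewer cells of a type and less RNA in each cell cannot be told apart.

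Most of the extracellular matrix genes tested were lower. Of 45 tested, 30 were lower and 3 higher, and the median change was -0.53, where 16.3% of all genes tested were lower and 14.9% higher. Col1a1, the main collagen of scar and growing connective tissue, was 1.55, 1.83 and 1.78 and then 0.18, 0.48 and 0.47, 2.53-fold lower (standard error 0.141, adjusted p = 1.22e-05). Lox, whose product cross-links collagen, went from -3.76, -3.67 and -3.79 to -4.93, -4.94 and -4.97, a 2.31-fold fall (adjusted p = 5.51e-06). Neither gene had overlapping groups, and the older Lox arrays were tightly grouped. Postn, for periostin, was -6.14, -6.01 and -6.65 in the younger SHRs and at background in the older ones, at least 1.61-fold lower (adjusted p = 2.23e-04). Col1a2 fell by 0.87. The exceptions were P4ha1 (0.88) and P4ha2 (0.37), prolyl hydroxylases of collagen, and the basement membrane gene Nid1 (0.53). WKY rats had 26 of the 45 genes lower and 2 higher, with a median of -0.41, where 14.0% of 12558 genes tested were lower and 19.3% higher. The mean of SHR and SHRSP arrays had 37 lower, where 33.3% of all genes tested were lower. SHRSP at 6 weeks against SHR at 3 weeks had 30 lower, where 3374 of all 19513 probes tested were lower. SHR at 6 weeks against SHRSP at 3 weeks had 32 lower, where 6859 of 20175 probes were. With scan day as a term 7 of the 45 were lower and 1 higher (median -0.33), Col1a1 among them (log2 -1.20, adjusted p = 0.0185), while Postn lost its call, and it was not tested in SHR at 6 weeks against SHRSP at 3 weeks.

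Among cell division genes some were higher and some lower, and the share that was lower was close to that of all genes tested. Of 54 tested, 13 (24.1%) were higher and 8 (14.8%) lower at 6 weeks of age, against 14.9% and 16.3% of all genes tested, with a median change of 0.17. The genes past the test were sorted by role only after they were called, and whether the roles differ was not tested. Genes of mitosis were among those that rose. Melk, a mitotic kinase, was -3.51, -3.42 and -3.19 and then -2.09, -2.15 and -1.97, 2.47-fold higher (standard error 0.13, adjusted p = 7.27e-06). Ccnb1, for cyclin B1, was -3.92, -3.73 and -3.66 and then -3.02, -2.69 and -2.96, 1.84-fold higher (adjusted p = 6.07e-04). The older arrays of Melk and Ccnb1 were all above the younger ones. Kif20a (0.84), Ccnb2 (0.79), Pbk (0.75), Kif11 (0.74), Cenpf (0.67), Tpx2 (0.53) and Ect2 (0.52) rose as well. Those that fell belong to DNA replication: Mcm3 (-0.84), Gins1 (-0.71), Mcm5 (-0.67), Mcm4 (-0.65), Mcm2 (-0.64), Mcm6 (-0.64) and Mcm7 (-0.52) of the replicative helicase, and the clamp gene Pcna (-0.27). Mcm3 was -1.21, -0.74 and -0.39 and then -1.58, -1.60 and -1.68. Its younger arrays were unlike one another, but all lay above the older ones. In WKY rats 7 of the 54 genes were higher and 9 lower, where 19.3% and 14.0% of all genes tested were. The counts were sensitive to label and to scan day: the mean of SHR and SHRSP arrays had 34 higher and 6 lower, SHRSP at 6 weeks against SHR at 3 weeks 11 and 6, SHR at 6 weeks against SHRSP at 3 weeks 34 and 2, and with scan day as a term 7 were higher and none lower (median 0.41). Among all genes tested 21.6% were higher and 33.3% lower in the mean, and 3.53% and 2.81% with scan day. Of all probes tested in SHRSP at 6 weeks against SHR at 3 weeks, 2382 of 19513 were higher and 3374 lower. In SHR at 6 weeks against SHRSP at 3 weeks 3316 of 20175 were higher and 6859 lower. In SHR at 6 weeks against SHRSP at 3 weeks Ccnb1 rose 3.06-fold, Kif20a 2.88-fold and Mcm3 was no longer past the test (-0.40).

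The promoters of these genes were read because members of a single list moved in both directions, although the share that fell was close to that of all genes tested. Among the 21 cell division genes past the test, 9 that rose and 7 that fell had a promoter in the RefSeq annotation of GRCr8, taken as 250 bases before to 50 after the gene start. The cell cycle homology region TTTGAA, read on both strands, matched in 5 of 9 promoters of genes that rose (55.6%), in 1 of 7 that fell (14.3%) and in 18.3% of all 33469 promoters. The E2F motif TTCCCGC matched in 1 of 9 (11.1%), 3 of 7 (42.9%) and 4.21%. CCAAT matched in 8 of 9 (88.9%), 6 of 7 (85.7%) and 37.5%. A match is a description, not a site or a cause. Printed, with matches in capitals, is a pair from each direction that had the most matches, Mcm7 having as many as Mcm3 and Mcm5: Ccnb2 (chr8:79981609-79981908, minus strand; 2 TTTGAA and 3 CCAAT) and Ect2 (chr2:111966577-111966876, minus strand; 2 and 3), which rose, and Mcm3 (chr9:30733697-30733996, minus strand; 3 CCAAT and 1 TTCCCGC) and Mcm5 (chr19:13488563-13488862, plus strand; 3 and 1), which fell.
Ccnb2: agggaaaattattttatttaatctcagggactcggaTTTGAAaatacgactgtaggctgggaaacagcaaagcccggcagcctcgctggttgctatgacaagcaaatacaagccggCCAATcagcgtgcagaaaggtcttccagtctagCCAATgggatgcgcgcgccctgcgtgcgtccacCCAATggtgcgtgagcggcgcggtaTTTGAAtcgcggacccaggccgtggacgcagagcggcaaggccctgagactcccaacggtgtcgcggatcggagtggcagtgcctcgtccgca
Ect2: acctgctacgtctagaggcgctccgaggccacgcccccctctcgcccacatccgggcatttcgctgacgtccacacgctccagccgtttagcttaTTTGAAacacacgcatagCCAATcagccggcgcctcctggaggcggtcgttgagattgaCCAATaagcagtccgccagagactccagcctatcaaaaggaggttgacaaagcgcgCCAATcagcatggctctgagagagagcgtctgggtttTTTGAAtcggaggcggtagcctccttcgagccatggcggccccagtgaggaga
Mcm3: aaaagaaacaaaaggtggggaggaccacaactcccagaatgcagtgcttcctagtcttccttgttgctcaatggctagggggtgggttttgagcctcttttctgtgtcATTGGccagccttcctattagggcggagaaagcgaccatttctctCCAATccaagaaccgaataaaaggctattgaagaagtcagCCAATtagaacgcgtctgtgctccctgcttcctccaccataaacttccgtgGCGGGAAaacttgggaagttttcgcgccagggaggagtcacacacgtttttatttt
Mcm5: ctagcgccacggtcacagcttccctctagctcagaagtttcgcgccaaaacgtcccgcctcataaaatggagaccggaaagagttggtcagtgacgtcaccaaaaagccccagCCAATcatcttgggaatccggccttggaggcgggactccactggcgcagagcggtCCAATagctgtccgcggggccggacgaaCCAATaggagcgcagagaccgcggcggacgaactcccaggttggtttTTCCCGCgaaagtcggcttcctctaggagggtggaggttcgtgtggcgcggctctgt

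**Figure D2:**
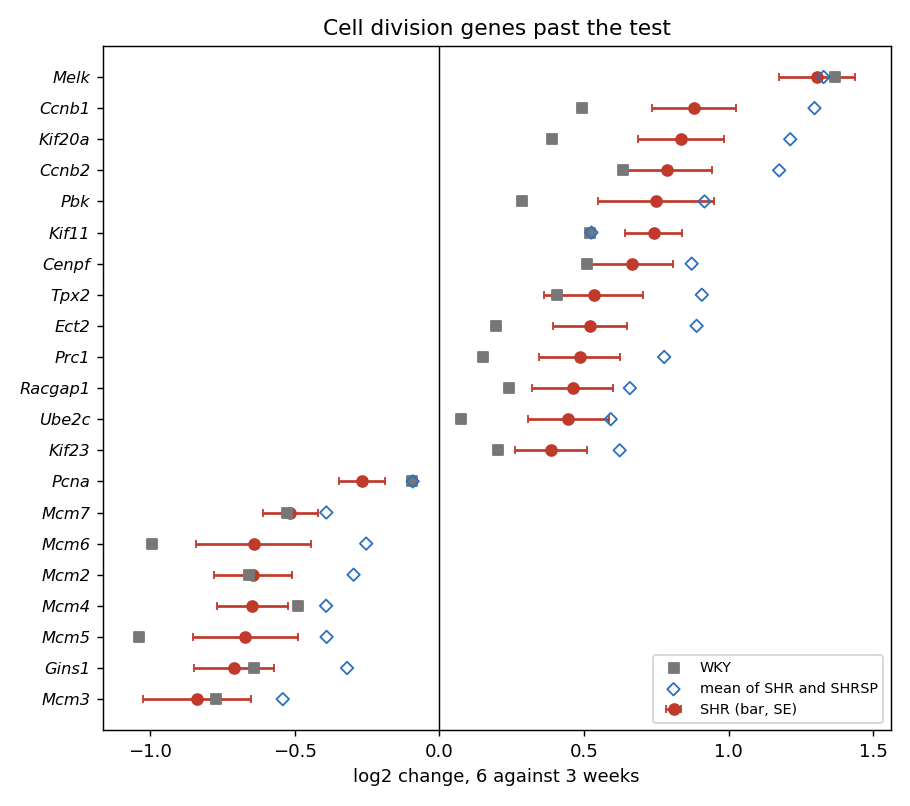
Log2 change from 3 to 6 weeks of age of the 21 cell division genes past the test in SHRs, with standard errors, beside the change in WKY rats and in the mean of SHR and SHRSP arrays. Melk rose by 1.31 and Mcm3 fell by 0.84 in SHRs, and 0.54 in the mean.

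Transporters of the proximal tubule rose more often than they fell. Of 53 tested, 20 were higher and 3 lower (median 0.20), against 23 and 3 in WKY rats, 30 and 7 in the mean of SHR and SHRSP arrays, and 5 and 2 with scan day as a term (median 0.19). Among all genes tested, 14.9% were higher and 16.3% lower in SHRs, and 19.3% and 14.0% in WKY rats. The shares were 21.6% and 33.3% in the mean, and 3.53% and 2.81% with scan day. Slco1a1, an organic anion transporter of the brush border, went from -1.36, -1.28 and -1.56 to 1.06, 0.97 and 1.06 in SHRs, 5.39-fold higher (standard error 0.132, adjusted p = 1.83e-08). Slc22a13, another organic anion transporter, was -2.53, -2.37 and -2.09 and then -4.91, -4.66 and -4.56, 5.22-fold lower (adjusted p = 2.27e-06). For Slco1a1 the older arrays were all high and for Slc22a13 all low. Slco1a1 rose 3.21-fold in SHR at 6 weeks against SHRSP at 3 weeks. Smaller rises were seen for the urate transporter Slc22a12 (0.83), the organic cation transporter Slc22a2 (0.77), the organic anion transporter Slc22a6 (0.55) and the water channel Aqp1 (0.55), that of Slc22a2 not past the test in SHR at 6 weeks against SHRSP at 3 weeks. The phosphate transporter Slc34a1 fell by 0.26, but lost its call when any of 5 single arrays was omitted, with scan day as a term and in SHRSP at 6 weeks against SHR at 3 weeks. Among 67 genes of drug and steroid metabolism 25 were higher and 10 lower (median 0.15), with Gsta1 (1.96) and Gsta3 (1.84) rising and the steroid dehydrogenase Hsd17b2 (-1.34) falling. The mean of SHR and SHRSP arrays had 28 higher and 21 lower, the share lower being close to that of all genes tested. The fit with scan day had 11 and 3 (median 0.12).

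**Figure D3:**
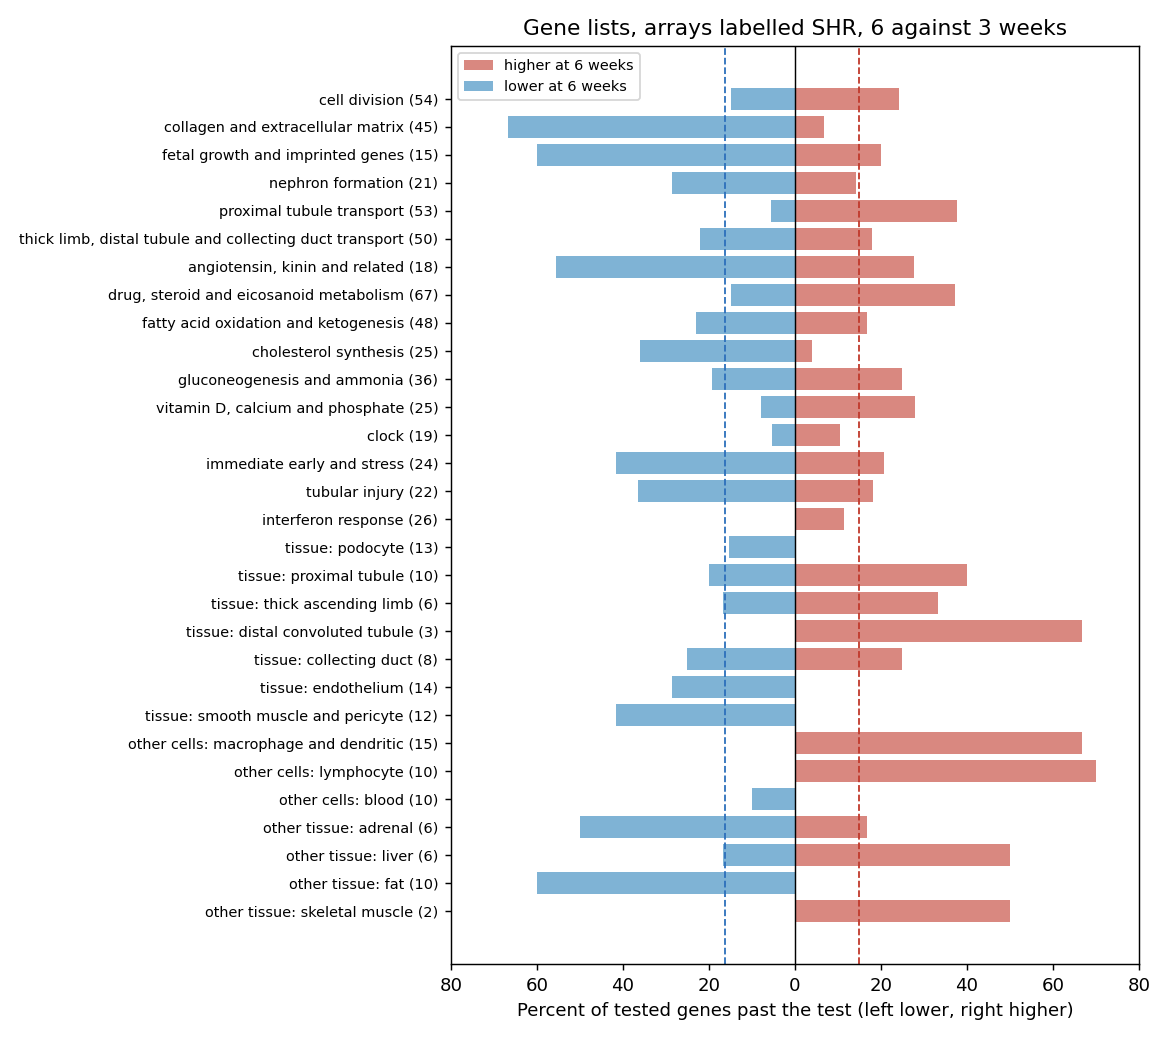
Percent of the tested genes of each list that were higher or lower at 6 weeks of age past the test in SHRs. Dashed lines mark all genes tested, 14.9% higher and 16.3% lower, and the matrix and fat lists lay far beyond the line on the lower side.

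Of 50 transport genes of the thick limb, distal tubule and collecting duct, 9 (18%) were higher and 11 (22%) lower (median 0.018), close to the shares of all genes tested. Trpv5, the calcium channel of the distal tubule, was -4.97, -5.00 and -5.28 and then -3.67, -3.79 and -3.65, 2.6-fold higher (adjusted p = 7.98e-06), but 1.49-fold in SHR at 6 weeks against SHRSP at 3 weeks. Aqp2, the water channel governed by vasopressin, was 5.34, 5.01 and 5.33 and then 4.73, 4.66 and 4.59, a fall of 0.57 in log2. Older arrays were all above the younger for Trpv5 and all below for Aqp2. Slc14a2, the urea transporter, fell by 1.19 and the cotransporter Slc12a1 by 0.54, while Slc12a3 (0.46), Egf (0.50) and the calcium-binding Calb1 (0.67) rose. The calls of Aqp2, Slc14a2, Slc12a3, Egf and Calb1 were lost with scan day as a term. On a second probe Slc14a2 changed by -0.58, not past the test (adjusted p = 0.486). Egf and Slc12a3 were also not past the test in the mean of SHR and SHRSP arrays.

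Genes for angiotensin, kinins and their receptors and enzymes fell more often than they rose in the labelled comparison. Of 18 genes tested in SHRs, 10 were lower and 5 higher (median -0.30), while in WKY rats 1 was lower and 4 higher (median 0.20). In SHRs 16.3% of all genes tested were lower and 14.9% higher, and in WKY rats 14.0% and 19.3%. Agt, for angiotensinogen, rose 15.7-fold from -2.35, -2.26 and -2.29 to 1.74, 1.55 and 1.73 (standard error 0.188, adjusted p = 4.19e-09). In WKY rats it was -0.67, -1.14 and -1.17 and then 0.26, -0.32 and 0.07. The younger SHRs were lower, and the older ones higher, than any WKY array, and the difference in growth was 2.98 (adjusted p = 1.20e-05). Part of the size of this rise turned on the labels: arrays labelled SHRSP gave -0.41, 0.38 and -0.19 at 3 weeks of age and 0.39, 0.46 and 0.46 at 6 weeks of age, and Agt rose by 2.24 in the mean and by 2.74 and 1.74 in the crossed comparisons.

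Ace, for angiotensin-converting enzyme, was -2.36, -2.06 and -2.0 in the younger and -3.70, -3.60 and -3.68 in the older SHRs, 2.87-fold lower (adjusted p = 2.09e-06), with no overlap, and a dimmer probe fell at least 4.87-fold. The fall of the first probe was 0.42 in the mean of SHR and SHRSP arrays, so that most of its labelled size depended on the labels, and in SHRSP at 6 weeks against SHR at 3 weeks it was not past the test (-0.33, adjusted p = 0.0775). The angiotensin II receptor genes Agtr1a (-0.45) and Agtr1b (-0.33), the prostaglandin synthase Ptgs2 (-0.82; well above background on only 1 of the older arrays), the kininogens Kng2, named Kng1 on the array (-1.18), and Kng1, named Kng1l1 (-1.10), the peptidase Mme (-0.27) and the mast cell chymase Cma1 (at least 2.36-fold) were lower. Another kininogen gene outside this list, Kng2l1, named Kng2 on the array, was at background in the younger SHRs and rose at least 1.94-fold (adjusted p = 1.89e-05). Its change in measured signal was 3.08 in log2, against 0.73 in the mean of SHR and SHRSP arrays, neither of them exact. The difference of SHRSP from SHR arrays was 2.23 at 3 weeks of age and -2.46 at 6 weeks of age. The older SHRSP arrays were also at background, so SHRSP at 6 weeks against SHR at 3 weeks was not tested. Enpep (0.56), Anpep (0.39, with overlapping groups), Klk1 (0.35) and Atp6ap2 (0.28) were higher. With scan day as a term the calls of Agtr1a, Agtr1b, Ptgs2, Mme, Cma1, Enpep and Klk1 were lost, and those of Agtr1b, Ptgs2, Cma1 and Atp6ap2 also ended when some single arrays were left out. Mme was not past the test in the mean of SHR and SHRSP arrays (-0.059), and Ptgs2, Cma1 and Atp6ap2 were not in SHRSP at 6 weeks against SHR at 3 weeks. For the mineralocorticoid receptor Nr3c2 the brighter probe did not pass the test (0.035, adjusted p = 0.768), while a probe at background in the younger SHRs rose at least 1.36-fold (adjusted p = 0.0191). Agtr2, Bdkrb1 and Nos1 never rose above background in either group and could not be assessed. This list had 9 genes lower and 6 higher in the mean of SHR and SHRSP arrays, and 5 lower and 1 higher with scan day as a term. Among all genes tested 33.3% were lower and 21.6% higher in the mean, and 2.81% and 3.53% with scan day. SHRSP at 6 weeks against SHR at 3 weeks had 6 lower and 5 higher, where 3374 of all 19513 probes tested were lower and 2382 higher. SHR at 6 weeks against SHRSP at 3 weeks had 8 lower and 6 higher, where 6859 of 20175 probes were lower and 3316 higher. In arrays labelled SHRSP 3 genes were lower and 7 higher, where 6939 of 20098 probes were lower and 3395 higher.

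Growth of WKY rats, measured on other arrays, served as the comparison between strains. In WKY rats 126 of 20399 probes changed more than 4-fold past the test (0.618%). The 65 probes past 4-fold in both strains were 41.7% of those of SHRs and 51.6% of those of WKY rats, and 64 went in the same direction. Across 19564 probes the changes in the strains had a Pearson r of 0.550 and a Spearman rho of 0.466. These are across probes, which are not independent replicates, and in both strains age went with slide and scan day. Growth differed between SHR and SHRSP labels past the test for 1703 of 20289 probes (8.39%). Between SHRs and WKY rats the difference in growth passed the test for 1898 of 20577 probes (9.22%), 350 of them higher and 1548 lower in SHRs. The number higher depended on scaling, and with quantile scaling 1374 were higher and 1555 lower. Genes that turned round with the labels were among the 1898, such as Rxrg (3.03) and Agtrap (-4.45).

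Besides Agt, some enzymes and carriers rose in both strains by different amounts. Cyp4a2 in WKY rats was -3.43, -2.17 and -2.75 at 3 weeks of age and 5.95, 5.69 and 5.92 at 6 weeks of age, while SHRs began at 0.75, 0.86 and 0.97. The strains were alike at 6 weeks of age, and the rise in SHRs was smaller by 3.60 (adjusted p = 6.28e-06) with the young SHRs already high. Slco1a1 had the same form, at -4.46, -4.36 and -4.54 and then 1.28, 0.65 and 1.14 in WKY rats, a rise of 5.48 against 2.43 in SHRs (difference -3.05, adjusted p = 3.24e-07). The younger SHRs were far above the younger WKY rats, and so were the younger SHRSP arrays, at -0.69, -0.77 and -0.49 for Slco1a1 and 1.17, 1.29 and 1.28 for Cyp4a2. For Cyp2c11 the order was reversed, with a rise of 3.50 in WKY rats and 7.31 in SHRs (adjusted p of the difference = 0.00202). Gc rose alike, by 3.88 in WKY rats and 3.76 in SHRs (adjusted p of the difference = 0.91), although all its SHR arrays at each age were above the WKY arrays of that age. Trpv5 changed by -0.074 in WKY rats and 1.38 in SHRs (adjusted p of the difference = 4.35e-04), and Igf2 fell by 0.38 and 1.02 (adjusted p of the difference = 0.0145).

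**Figure D4:**
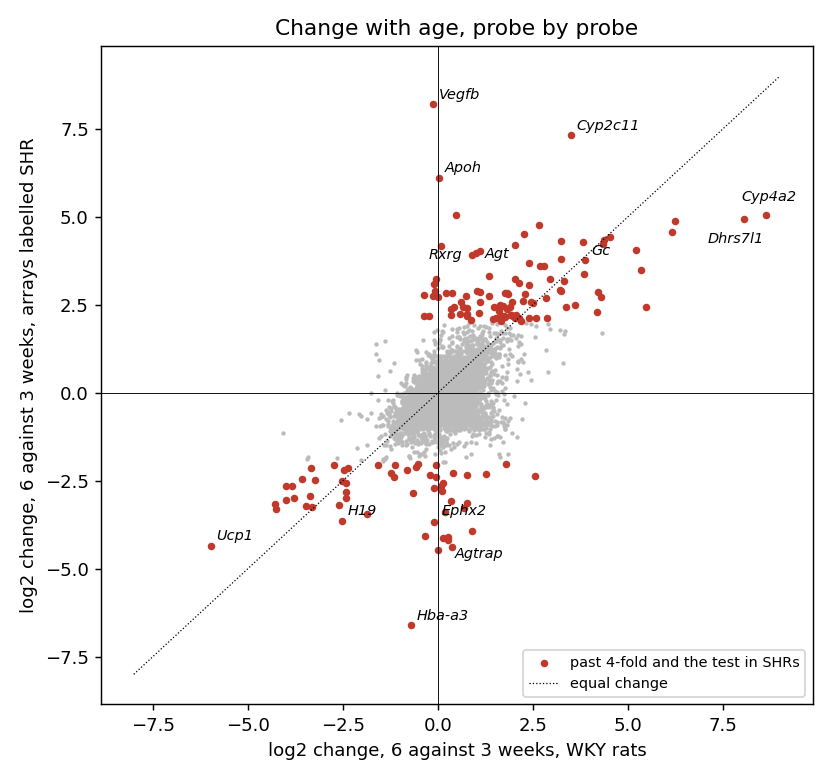
Log2 change from 3 to 6 weeks of age in WKY rats (horizontal) and SHRs (vertical) for each probe, with probes past 4-fold and the test in SHRs in red and a dotted line of equal change. Agtrap lay far from the line (-4.20 in SHRs), as did Vegfb, drawn at its measured signal though at background in the younger SHRs, and Gc lay close to it (3.76 against 3.88).

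Markers of other cells and tissues moved with several of these groups, and their part in the result was not tested. Fat genes made up many of the largest falls. Of 13 on the array, 10 were tested and 6 were lower and none higher (median -1.48), where 16.3% of all genes tested were lower. Ucp1, the uncoupling protein of brown fat, was 2.20, 1.68 and 0.67 and then -3.14, -2.90 and -2.46, 20.4-fold lower (standard error 1.33, adjusted p = 0.0232). Cidea, a lipid droplet protein of brown fat, was 2.16, 1.70 and 0.90 and then -0.95, -0.78 and -0.87, 5.48-fold lower (adjusted p = 0.0107). The younger arrays of Ucp1 and Cidea were high but spread in the same order, replicate 1 highest and replicate 3 lowest, and all were above the older arrays. Ucp1 lost its call when any of 5 of the 6 SHR arrays was left out. The summed signal of the fat genes, relative to the 75th percentile, was 12.9, 9.72 and 5.54 on the younger and 1.81, 1.99 and 1.97 on the older SHR arrays, and Cidea was the brightest. In WKY rats it was 17.9, 8.38 and 10.2 and then 1.11, 3.94 and 1.21. Other genes with large falls were the cytochrome oxidase subunit Cox8b (-3.31), the desaturase Scd (-3.22), the glycogen synthase Gys2 (-3.05), the lipogenic regulator Thrsp (-2.66) and adipsin, Cfd (-2.64). Slc36a2 fell at least 5.67-fold and Ucp3 at least 4.1-fold. With scan day as a term the calls of Ucp1 (log2 -3.09, adjusted p = 0.472), Cidea (log2 -1.19, adjusted p = 0.564), Cox8b, Scd, Gys2, Thrsp, Cfd, Slc36a2 and Ucp3 were lost, and 1 of the 10 fat genes tested was lower (median -0.83). Under that term 2.81% of all genes tested were lower. In the mean of SHR and SHRSP arrays Ucp1 fell by 4.18 and Cidea by 2.28.

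Macrophage genes went the other way. Of 19 on the array 15 were tested, 10 of them higher and none lower (median 0.67), against 10 and none in WKY rats. Among all genes tested 14.9% were higher and 16.3% lower in SHRs, and 19.3% and 14.0% in WKY rats. The SHR shares also apply to the other lists in this paragraph. Lyz2, for lysozyme, the brightest of them, was 3.74, 3.58 and 3.68 and then 4.48, 4.61 and 4.64 (log2 0.91, adjusted p = 2.53e-04). Its older arrays were all above the younger ones. Fcer1g (1.28), Adgre1 (1.26) and Aif1 (0.99) rose, whereas Cd163, Mrc1 and Ccr2 were not well above background. The summed signal was 26.5, 26 and 28.1 on the younger and 41.9, 47.0 and 46.7 on the older SHR arrays. In the mean of SHR and SHRSP arrays 10 were higher and 1 lower, in SHRSP at 6 weeks against SHR at 3 weeks 5 were higher, and with scan day as a term 6 (median 0.67). Of all 19513 probes tested in that crossed comparison 2382 were higher. By genes, 21.6% were higher and 33.3% lower in the mean, and 3.53% were higher with scan day. Adgre1 rose 4.04-fold in SHR at 6 weeks against SHRSP at 3 weeks. Lymphocyte genes, of which 10 of 22 were tested, had 7 higher and none lower (median 0.78), Cd3g (1.66; 0.92 in the mean of SHR and SHRSP arrays, and 0.44 and not tested in SHRSP at 6 weeks against SHR at 3 weeks) among them. Some, such as Cd3g, were tested because all arrays of the older group alone were well above background, which favors rises in the count, and the median was 0.39 with normexp background correction. From this list Cd3e, Cd2, Cd5, Cd79b and Ms4a1 were not well above background. The summed signal of the lymphocyte genes was 0.813, 0.943 and 0.941 and then 0.972, 1.05 and 0.950, and the brightest, Pax5, was not past the test. Blood genes, 10 of 12 tested, summed to 166, 114 and 125 and then 85.8, 98.8 and 95.4, with 1 lower. Hba-a1 was the brightest of them, and Epb42 and Ppbp were not well above background. Liver genes, 6 of 15 tested, summed to 3.13, 3.28 and 3.74 and then 5.56, 5.36 and 5.13, with 3 higher and 1 lower, Apoc3 the brightest, and Apoa2, Cps1, Tat and C9 not well above background. Adrenal genes, 6 of 14 tested, summed to 0.641, 0.924 and 0.931 and then 0.688, 0.673 and 0.586, Th being the brightest, with 1 higher and 3 lower. Skeletal muscle genes, 2 of 12 tested, summed to 0.440, 0.461 and 0.282 and then 0.593, 0.630 and 0.510, Tnni2 the brightest, and Ckm, Myh1 and Myh2 were not well above background.

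Marker genes of kidney cell types and the remaining lists were counted in the same way, to be read against the 14.9% of all genes tested that were higher and the 16.3% that were lower. Several of these lists were close to those shares. Of 10 proximal tubule markers 4 were higher and 2 lower (median 0.11), and their summed signal was 302, 314 and 340 on the younger and 318, 323 and 313 on the older SHR arrays. Of 3 distal convoluted tubule markers 2 were higher (median 0.46). Thick ascending limb markers had 2 of 6 higher and 1 lower, and collecting duct markers 2 of 8 higher and 2 lower. Podocyte markers had 2 of 13 lower (15.4%, median -0.22), endothelial markers 4 of 14 (median -0.17) and smooth muscle and pericyte markers 5 of 12 (median -0.34), with none higher. The podocyte count depended on scaling. With the all-probe and the common-probe percentile 6 of 13 were lower (46.2%), against 19.2% and 19.5% of all genes tested. It was 5 with quantile scaling and 4 with normexp. Smooth muscle and pericyte markers had 8 of 12 lower with either of these percentiles. Among remaining lists, genes of the immediate early response had 10 of 24 lower and 5 higher (median -0.19), with Egr1 (-1.45) and Gadd45b (-1.04) falling and losing their calls with scan day as a term. Tubular injury genes had 8 of 22 lower and 4 higher, the complement gene C3 (2.09) rising and Fgb (-1.40) falling, as did Krt20 (at least 2.04-fold). In SHR at 6 weeks against SHRSP at 3 weeks Fgb (-0.30, adjusted p = 0.0598) and Egr1 (-0.73) were not past the test, and in SHRSP at 6 weeks against SHR at 3 weeks C3 rose by 1.28. Cholesterol genes had 9 of 25 lower and 1 higher, Hmgcs1 (-0.45) among those lower. Fatty acid genes had 8 of 48 higher (16.7%) and 11 lower (22.9%), with Lpl (-1.09) falling. The calls of Krt20 and Hmgcs1 were lost with scan day as a term, as was that of Hpd in the next list. Genes of gluconeogenesis and ammonia handling had 9 of 36 higher and 7 lower, the glutamine transporter Slc38a3 (0.87) and ornithine aminotransferase Oat (0.67) rising and Hpd (-0.76) falling, Oat not past the test in SHR at 6 weeks against SHRSP at 3 weeks. Vitamin D and mineral genes had 7 of 25 higher and 2 lower, Cyp24a1, which inactivates vitamin D, rising by 0.92 in SHRs and falling by 1.55 in WKY rats. Of 26 interferon and antigen-presentation genes 3 were higher, of 19 clock genes 2 were higher and 1 lower, and of 21 nephron formation genes 3 were higher and 6 lower. In the mean of SHR and SHRSP arrays, podocyte markers had 11 of 13 lower and smooth muscle markers 9 of 12, where 33.3% of all genes tested were lower.

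Groups of 3 arrays limit the precision of every estimate, and age in SHRs cannot be told apart from slide and scan day. The strain label of the arrays could not be settled from the array values. The paper's RT-qPCR of Apoh had the same signs between SHRSP and SHRs at both ages as the labelled arrays, and whether it used the same samples was not tested.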

How the data were processed

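Intensity was the processed signal that the authors deposited, made from the scans by Feature Extraction 10.5.1.1, with 42877 non-control spots per array. On each array 70.8 to 76.9% of probes were well above background, and no spot among them was saturated. Signals were divided by the array's 75th percentile among well detected spots, and log2 was taken. Spots marked as non-uniform or as population outliers were omitted and repeated spots averaged; 30359 probes were fitted, and 8 that lost every spot on 1 or more arrays were not. All 18 arrays were fitted in 6 groups with limma 3.58.1 in R 4.3.3, and p values were adjusted after Benjamini and Hochberg across probes tested, those that every array of 1 or more compared groups showed well above background. Through the RefSeq table of GRCr8, 20878 probes matched 17483 genes, and each gene was read by its brightest probe. Named genes were those with the largest rises and falls in SHRs, those that differed most in growth between strains, and leading or fixed members of each gene list, 158 in all. Members and lists were chosen with earlier results of these data known. Alternatives were other scaling, normexp background correction, slide and scan day terms, array weights, crossed labels, and leaving out each array.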

Additional observations from a re-analysis of the deposited data

Results flagged for a closer look

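Genes were flagged where the growth of arrays labelled SHR from 3 to 6 weeks of age differed past the limma test of the difference from that of another strain. Against WKY rats the log2 difference was 8.32 for Vegfb, 6.08 for Apoh, 3.81 for Cyp2c11, 3.19 for Kng2l1, 3.03 for Rxrg, 2.98 for Agt, 2.90 for Cyp8b1 and 2.89 for Serhl2. It was -5.91 for Hba-a3, -4.45 for Agtrap, -4.18 for C1galt1c1-ps1, -3.75 for Haghl, -3.60 for Cyp4a2, -3.58 for Ephx2, -3.57 for Spetex2g and -3.56 for Prp2l1. Against arrays labelled SHRSP it was 16.23 for Vegfb, 11.90 for Apoh, 7.48 for Rxrg, -12.22 for Hba-a3, -10.06 for Agtrap, -8.03 for Haghl, -7.34 for Ephx2 and -6.75 for Prp2l1. These are differences of measured signal and are not exact where a compared group was at background on all its arrays. Such groups were the younger SHR and older SHRSP arrays for Vegfb and Apoh, the older SHR and younger SHRSP arrays for Hba-a3 and Haghl, the younger SHR arrays and all WKY arrays for Kng2l1, the WKY arrays for Cyp8b1, and the SHR and younger WKY arrays for C1galt1c1-ps1.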

How the results depend on the processing

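The count of 156 probes past 4-fold in SHRs became 55 with normexp background correction, 69 when probes had to be well above background in every group, 673 at 2-fold, and 79 without the probes that differed between SHR and SHRSP labels, a setting added after seeing the data; leaving out single arrays gave 160 to 178. The 6270 probes past the test at any fold became 1522 with a scan day term, 4499 with only the compared arrays, 11076 with array weights, 11215 in the mean of SHR and SHRSP arrays and 10175 for SHR at 6 weeks against SHRSP at 3 weeks, with 4206 to 6439 when single arrays were left out. The 1898 probes that differed from WKY rats in growth (350 higher, 1548 lower) became 2929 with quantile scaling (1374 and 1555), 5663 with array weights, 3705 for the mean and 4478 for SHR at 6 weeks against SHRSP at 3 weeks. Scaling to the 75th percentile of all probes gave 2308 (692 and 1616), of common probes 2373 (629 and 1744), and normexp 2496 (747 and 1749). Leaving out single arrays gave 1193 to 2470, lowest without WKY replicate 2 (1210 at 3 weeks, 1193 at 6 weeks), WKY replicate 3 at 6 weeks (1210) and SHR replicates 1 and 3 at 6 weeks (1215 and 1221). The 1703 that differed from SHRSP (1119 higher, 584 lower) became 2749 with quantile scaling (1280 and 1469), 2440 (1027 and 1413) and 2445 (1027 and 1418) with the all-probe and common-probe percentiles, 939 with only the compared arrays, 487 with slide as a fixed term, 551 with scan day and 8169 with array weights. Leaving out single arrays gave 1092 to 4486, the extremes being SHRSP replicate 1 at 3 weeks (4486), SHR replicates 1 and 2 at 6 weeks (1111 and 1092) and SHRSP replicate 3 at 6 weeks (1093). The cause was not tested. Slide as a fixed term was not run for SHR growth or its difference from WKY rats, where it could not be estimated, and slide as a random block gave 156, 6544, 2081 and 1755.

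With replicate number as a block the counts were 156, 6063, 1723 and 1555, and across probes the deviations from the group mean of younger and older SHR arrays with the same number correlated at -0.2117, 0.0071 and -0.1147, so the numbers were not taken to pair arrays.

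Some genes changed sign. With scan day this was Actg2 (0.29), and in the mean of SHR and SHRSP arrays Agtrap (0.84), Atp6v1g3 (-0.046), Hspa1b (-0.18) and Per2 (-0.025). For SHRSP at 6 weeks against SHR at 3 weeks they were Agtrap (0.71), Atp6v1g3 (-0.0515), Ephx2 (0.0715), Hspa1b (-0.56), Prp2l1 (0.31), Rxrg (-0.67) and Serhl2 (-0.018). Apoh (-0.036) was at background in both groups of that comparison, so its sign there cannot be read. For SHR at 6 weeks against SHRSP at 3 weeks they were Agtrap (0.97), Atp6v1g3 (-0.041), Egf (-0.019), Lrp2 (-0.042), Per2 (-0.86), Ptger3 (-0.018) and Spetex2g (1.84). The size for Spetex2g is not exact, because the younger SHRSP arrays were at background. Haghl (0.037) was at background in both groups of this comparison, so its sign here cannot be read.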

Other observations

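Nothing further stood out in these arrays beyond the values given above.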
